A study of Mus musculus with 2 samples.

Results

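The genes described here are 38 lysosomal genes: 18 acid hydrolases, 4 soluble luminal cofactors, 9 membrane proteins, 4 genes of the proton pump and 3 transcription factors of the MiT/TFE family. They were chosen by name from the known make-up of the lysosome, with earlier results of these data already known. Each of the 38 carried at least 1 UMI (unique molecular identifier, 1 counted transcript molecule) in both libraries. Transcripts were counted in single mouse cells of 2 libraries, 1 of lung and 1 of gastrocnemius, the large calf muscle. Both were labelled as CD45+ cells, the common leukocyte surface antigen encoded by Ptprc, taken with magnetic beads, and the animals were titled TB mice, with CAC mouse model as their genotype. Both libraries share this description, no label gives a treatment or the number of mice behind a library, and neither short name was interpreted. The study asks about muscle loss and immune side effects in muscle during PD-L1 blockade; its muscle RNA-seq from mice given anti-PD-L1, anti-CD8a or IgG was not analysed here.

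The lysosome is the acidic organelle in which cells degrade proteins, glycans and lipids delivered by endocytosis, phagocytosis and autophagy. Hydrolases cut these substrates at low pH, soluble cofactors present lipids to them, membrane proteins shield the limiting membrane and carry products out, and the V-type proton pump keeps the lumen acidic. Tfeb, Tfe3 and Mitf are related factors that bind E-box sequences upstream of many lysosomal genes. Macrophages are known for a large lysosomal compartment, and the lung and muscle each hold resident macrophages beside structural cells.

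Barcodes with at least 200 genes and at most 10% mitochondrial UMIs were kept, 8194 of 8481 in lung and 2243 of 5547 in muscle. In muscle, 3301 barcodes (59.5%) were over the mitochondrial limit, against 273 (3.22%) in lung. A cell was put in a gate when at least 3 marker genes of a type carried a UMI, and 5897 lung cells (72.0%) and 1684 muscle cells (75.1%) passed a gate. Each gate name below stands for cells like that type by these markers; no lysosomal gene was a marker. In 12 lung gates and 13 muscle gates at least 20 cells were found, from 2378 lung cells in the neutrophil gate to 24 muscle cells in the Mmp12 macrophage gate. In these gates, genes kept out of the marker lists for a check were higher in their own gate than in the other gated cells of the library, except Cd9 in the muscle Mmp12 macrophage gate (400 against 642 counts per 1000000, CPM). The CD45 label held for lung, where 5558 gated cells (94.3%) were of leukocyte types and Ptprc stood at 546 CPM in them. It did not hold for muscle, where 1414 gated cells (84.0%) were endothelial, mesenchymal, Schwann or satellite cells with Ptprc at 1.32 CPM. In these muscle cells 6 had a Ptprc UMI (0.424%), against 236 (87.4%) of the 270 muscle cells in leukocyte gates. The 2 libraries shared 64 barcode sequences, 14 of them among gated cells.

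Levels are UMIs of a gene relative to all UMIs of the gate, in CPM. The 5' kit counts transcript ends, so values were not divided by gene length. With 1 library per tissue there was no replicate, no test and no p-value. Intervals are exact 95% Poisson or binomial intervals that cover counting error only, and the tissue cannot be told apart from its library.

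The summed level of the 38 genes was highest in macrophage gates of both tissues. In lung it was 16138 CPM (interval 15533 to 16759) in alveolar macrophages, 15816 (15720 to 15913) in Mmp12 macrophages and 14495 (14347 to 14645) in C1q macrophages. The intervals of alveolar and Mmp12 macrophages overlapped, so their order was not resolved. In muscle, C1q macrophages stood at 14466 CPM (14098 to 14841) and Mmp12 macrophages at 11730 (11365 to 12104). With at least 4 markers in the gate this order turned, with 15167 CPM in muscle Mmp12 macrophages ahead of 14239 CPM in C1q macrophages. With at least 2 markers the lung order turned as well, with 15407 CPM in Mmp12 and 14695 CPM in alveolar macrophages.

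Below the macrophages, lung monocytes held 10140 CPM and type 1 dendritic cells 9977 CPM, and their intervals overlapped. Mgl2 dendritic cells (6859 CPM), neutrophils (6249 CPM) and migratory dendritic cells (5215 CPM) came next. NK cells (3929 CPM), epithelial cells (3181 CPM), B cells (2853 CPM) and T cells (2737 CPM) formed the low end, and the intervals of B and T cells overlapped. In muscle the order went on with monocytes (8903 CPM), Mgl2 dendritic cells (8408 CPM), whose intervals overlapped, and fibroblasts (5559 CPM). Schwann cells (4167 CPM) and neutrophils (4036 CPM) had overlapping intervals, as had arterial (3395 CPM), capillary (3218 CPM) and pericyte (3213 CPM) gates. Satellite cells (2438 CPM), venous endothelial cells (2435 CPM) and smooth muscle cells (2149 CPM) were lowest, each overlapping the next.

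**Figure D1:**
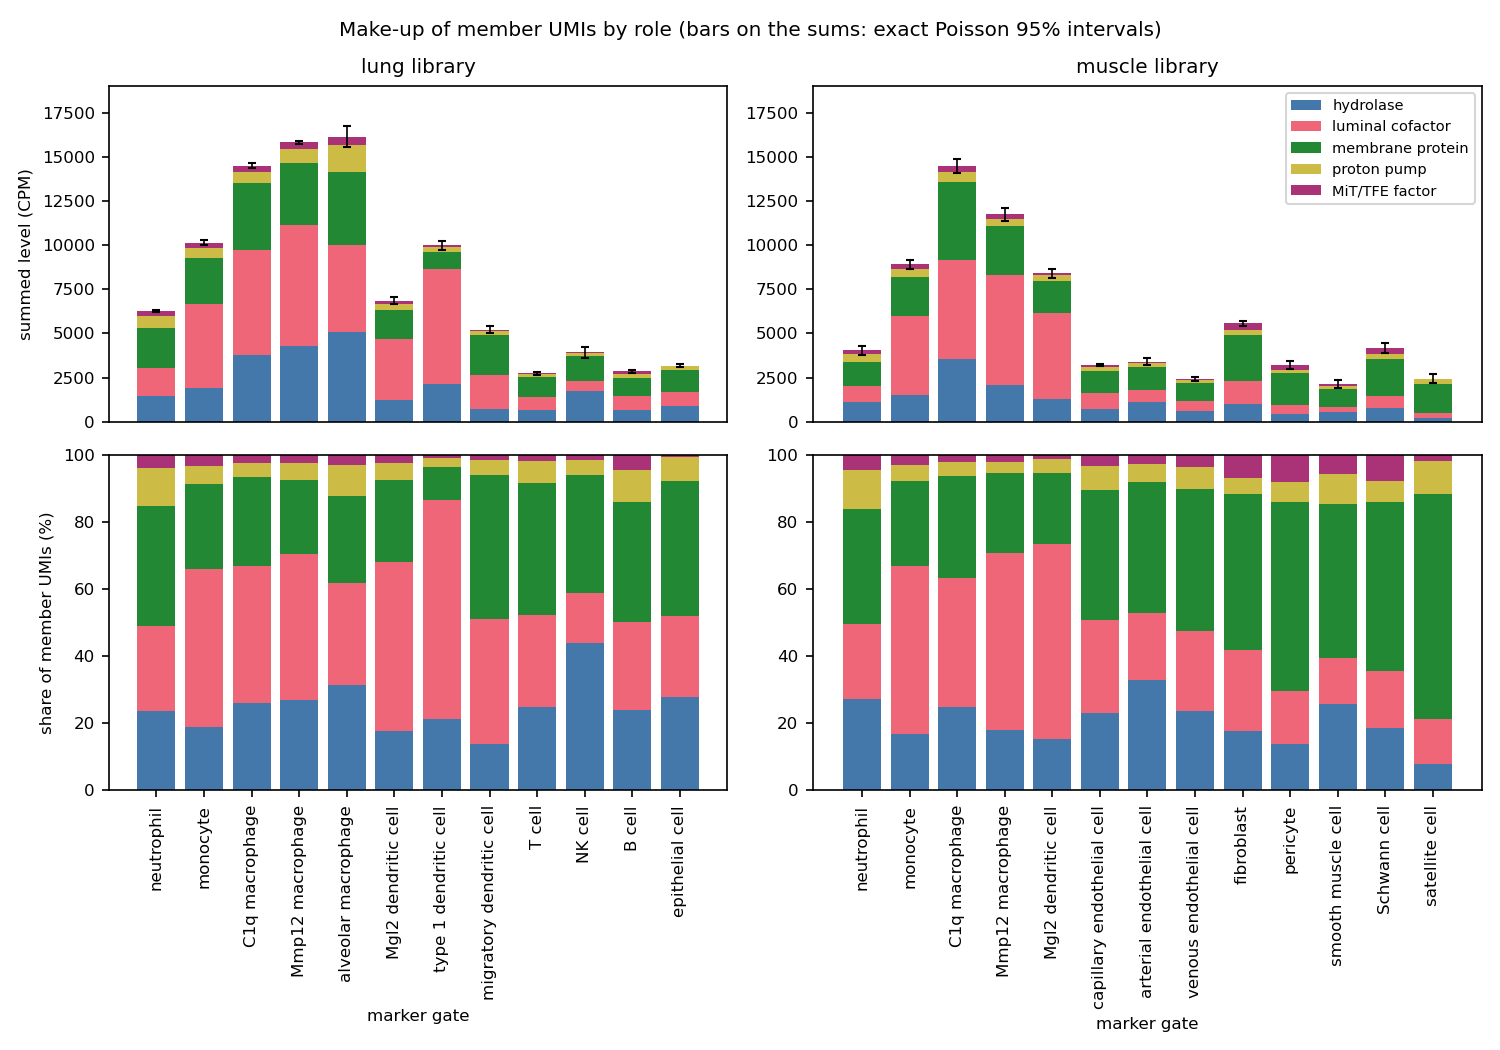
Summed level of the 38 genes in CPM (upper row, with exact Poisson 95% intervals on the sum) and the share of their UMIs held by each role in percent (lower row), for each gate of the lung and muscle libraries. Macrophage gates reach 11730 to 16138 CPM, and membrane proteins take 67.0% of the UMIs in muscle satellite cells against 10.1% in lung type 1 dendritic cells.

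C1q macrophages and monocytes each had a like make-up by role in both libraries. In C1q macrophages hydrolases took 26.2% of lysosomal UMIs in lung and 24.7% in muscle, luminal cofactors 40.8% and 38.6%, membrane proteins 26.3% and 30.3%, the pump 4.17% and 4.25%, and MiT/TFE factors 2.56% and 2.13%. In monocytes hydrolases took 18.9% in lung and 16.7% in muscle, luminal cofactors 46.9% and 50.2%, and membrane proteins 25.6% and 25.3%. The pump took 5.33% and 4.62% there, and MiT/TFE factors 3.29% and 3.08%. The extremes lay in other cells. Luminal cofactors took 65.0% (63.8% to 66.2%) in lung type 1 dendritic cells, where membrane proteins had their lowest share, 10.1%. A single gene, Psap, held 5143 of the 6490 CPM of cofactors there. Membrane proteins took 67.0% (61.4% to 72.2%) in muscle satellite cells, 56.3% in pericytes and 50.2% in Schwann cells. Cd63 alone held 900.5 of the 1634 CPM of membrane proteins in satellite cells, and Laptm4a 734 of 1809 CPM in pericytes. The satellite gate held 37 cells, of which 17 passed with the minimum number of markers. Hydrolases took their largest share, 43.9% (40.1% to 47.8%), in lung NK cells and their smallest, 7.84%, in satellite cells. Without Arsb, 1 gene, the share in NK cells was 26.1%. The pump had its largest share in neutrophils of both tissues, 11.3% in lung and 11.6% in muscle. MiT/TFE factors went from 0.597% in lung epithelial cells to 8.04% in muscle pericytes. Schwann cells stood close to the pericytes at 7.80%, with overlapping ranges over the settings (4.47% to 8.25%, and 7.12% to 9.26% in pericytes).

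Each gate of at least 50 cells was set against the other gated cells of its library. A gene was counted as higher or lower when the ratio was at least 2-fold with an interval excluding 1, among genes with at least 30 UMIs over both sides. In muscle C1q macrophages 24 of 37 members were higher and 0 lower, where 8.50% of all genes tested were higher and 20.3% lower. The median log2 ratio was 1.46 over the members and -0.32 over all genes. In lung Mmp12 macrophages 12 of 38 were higher and 1 lower (all genes, 4.17% and 24.7%), and in lung C1q macrophages 9 were higher and 1 lower (4.17% and 17.6%). Their median log2 ratios were 0.67 and 0.69, against -0.33 and -0.20 over all genes. The muscle C1q gate was compared with mostly structural cells and the lung gates with mostly leukocytes, so these counts are not on 1 footing.

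In muscle monocytes 9 members were higher and 3 lower (all genes, 9.63% and 25.0%). In lung monocytes 0 were higher and 3 lower (2.95% and 19.1%), a smaller share in both directions than over all genes. Lymphocyte gates held mostly lower members. The counts were 27 lower and 1 higher in lung T cells (all genes, 21.0% and 18.2%), 24 lower and 2 higher in NK cells (8.64% and 9.84%) and 20 lower and 1 higher in B cells (23.6% and 15.2%). Lung epithelial cells had 21 lower and 1 higher (25.6% and 20.2%). Migratory dendritic cells had 18 lower and 0 higher (16.7% and 7.40%), type 1 dendritic cells 14 lower and 6 higher (15.9% and 7.70%), and Mgl2 dendritic cells 6 lower and 1 higher (11.7% and 4.59%).

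In lung neutrophils 9 members were lower and 1 higher where 41.9% and 10.0% of all genes were, so members past the rule were a smaller share than the background. In muscle neutrophils 14 were lower and 5 higher (31.5% and 7.50%). The endothelial gates had 17 lower and 2 higher in capillary cells (22.3% and 10.4%), 15 lower and 1 higher in arterial cells (15.0% and 6.30%) and 15 lower and 0 higher in venous cells (19.3% and 7.27%). Pericytes had 15 lower and 0 higher (14.9% and 12.4%), and Schwann cells 9 lower and 4 higher (14.7% and 13.9%). Fibroblasts had 6 lower and 5 higher, near the background of 19.9% and 13.1%. The capillary gate also carried haemoglobin transcripts (Hba-a1 and Hbb-bs) among its 10 leading genes.

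**Figure D2:**
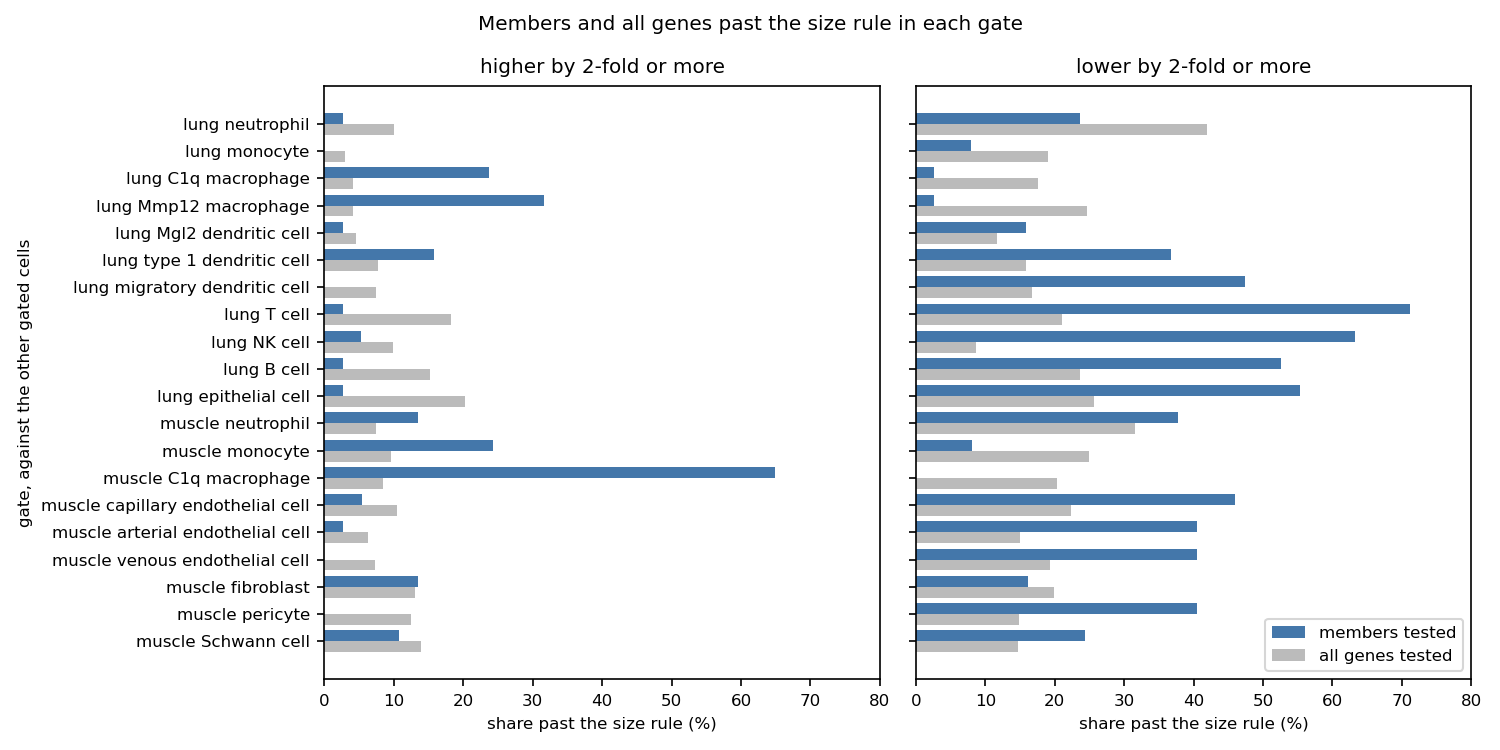
Share of the members tested (blue) and of all genes tested (grey) that were higher (left) or lower (right) by 2-fold or more in each gate against the other gated cells of its library, in percent. Muscle C1q macrophages stand out on the left with 24 of 37 members, and lung T cells on the right with 27 of 38.

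Among the hydrolases Ctsd, the aspartic protease cathepsin D, was the most abundant. It held 3194 CPM (2928 to 3477) in lung alveolar macrophages, 2524 in Mmp12 macrophages and 1714 in C1q macrophages, and 1246 CPM in muscle C1q macrophages. Other lung gates reached at most 585 CPM, the monocytes. In lung type 1 dendritic cells Ctsd stood at 53.7 CPM against 1049 CPM in the other gated lung cells, and 51.5% of its UMIs there came from 1 cell. Migratory (62.2 CPM), Mgl2 dendritic (80.6 CPM) and B cells (80.2 CPM) were as low. In muscle the second highest gate was no leukocyte: arterial endothelial cells held 731 CPM (643 to 829), against 220 CPM in capillary and 149 CPM in venous cells. In these arterial cells Ctsd made 65.3% of all hydrolase UMIs, and 53 of 78 cells had a UMI. The annotation places a second gene, Gm49369, over Ctsd on the same strand.

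Arsb, the sulfatase arylsulfatase B that trims dermatan and chondroitin sulfate, had the highest lung peak of the hydrolases relative to its median lung gate (14.7 CPM). It stood at 946 CPM (804 to 1107) in lung NK cells against 24.3 CPM in the other gated lung cells. Of the 58 NK cells 50 had an Arsb UMI (86.2%), with 8.86% of the UMIs from the highest cell. After each cell was thinned to 1000 UMIs the share was 56.9%, against 4.26% in T cells and 1.35% in neutrophils. Lung type 1 dendritic cells were second with 270 CPM (41 of 59 cells), and T cells held 61.7 CPM, both higher than the rest. Monocytes had the lowest lung level, 5.36 CPM. In muscle the highest gate was the Mgl2 dendritic cells at 74.7 CPM; NK cells were not found there, and the 10 type 1 dendritic cells were too few to describe. Antisense genes overlap Arsb (Gm47210 among them), and the strand setting of the counting is not given in the sources used here.

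Ppt1, the palmitoyl thioesterase that removes lipid anchors from proteins, stood at 714 CPM (649 to 784) in lung type 1 dendritic cells. The other gated lung cells held 65.5 CPM, and the second lung gate, alveolar macrophages, 114 CPM. A Ppt1 UMI was found in 47 of 59 type 1 dendritic cells. In muscle the highest gate was the neutrophils, at 142 CPM against 38.5 CPM in the rest. The gene Cap1 overlaps Ppt1 on the opposite strand.

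Ctsa, the protective protein cathepsin A that stabilises the sialidase and galactosidase complex, was highest in C1q macrophages of both tissues, at 423 CPM in lung and 457 CPM in muscle. Its partners did not follow the same order. Neu1, the sialidase, was highest in neutrophils of both tissues (102 CPM in lung and 101 CPM in muscle). Glb1, the beta-galactosidase, was highest in lung T cells (44.0 CPM) and muscle C1q macrophages (51.8 CPM), and had 0 UMIs in lung alveolar macrophages, where 3 UMIs would be 18.0 CPM.

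Other hydrolases of glycans and glycolipids did not all peak in the same gate. Hexa, the alpha subunit of hexosaminidase, held 336 CPM in alveolar, 311 in C1q and 268 in Mmp12 macrophages of lung and 392 CPM in muscle C1q macrophages. Man2b1, the lysosomal alpha-mannosidase, held 327 and 392 CPM in the C1q macrophages of lung and muscle and 356 CPM in lung type 1 dendritic cells. Gla, the alpha-galactosidase that clears globotriaosylceramide, was instead highest in lung neutrophils. It held 124 CPM (115 to 132) there against 32.6 CPM in the other gated lung cells, and was the only member higher in that gate. In muscle neutrophils it stood at 62.9 CPM against 17.1 CPM; smooth muscle cells read 132 CPM from 21 UMIs in 9 cells. Gusb, the beta-glucuronidase, was highest in lung type 1 dendritic cells (221 CPM) and in muscle Mmp12 macrophages (157 CPM).

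Gaa, the acid glucosidase that degrades glycogen, was highest in muscle fibroblasts, at 99.7 CPM (83.2 to 119) against 14.6 CPM in the other gated muscle cells. Satellite cells held 31.9 CPM and muscle neutrophils 0. Lipa, the acid lipase that frees cholesterol from esters, stood at 276 CPM in lung alveolar and 144 CPM in Mmp12 macrophages. In muscle, capillary endothelial cells held 123 CPM (109 to 138) against 53.7 CPM in the rest, next to 126 CPM in Mmp12 macrophages. Smpd1, the acid sphingomyelinase, was also higher in capillary cells, at 35.5 CPM against 14.3 CPM. These were the 2 members higher in capillary cells. In lung Smpd1 was the 1 member higher in epithelial cells (16.9 against 7.76 CPM), but with every cell weighted equally the log2 ratio was -0.051.

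Asah1 (acid ceramidase), Tpp1 (tripeptidyl peptidase) and Manba (beta-mannosidase) were highest in the C1q macrophages of both libraries. Their levels there were 214 and 269 CPM, 143 and 123 CPM, and 57.7 and 64.2 CPM, lung before muscle. Naglu and Galns, which act on heparan and keratan sulfate, were scarce, with at most 36.0 CPM and 30.02 CPM in any gate. Both were higher in muscle C1q macrophages than in the rest, each at 22.2 CPM.

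**Figure D3:**
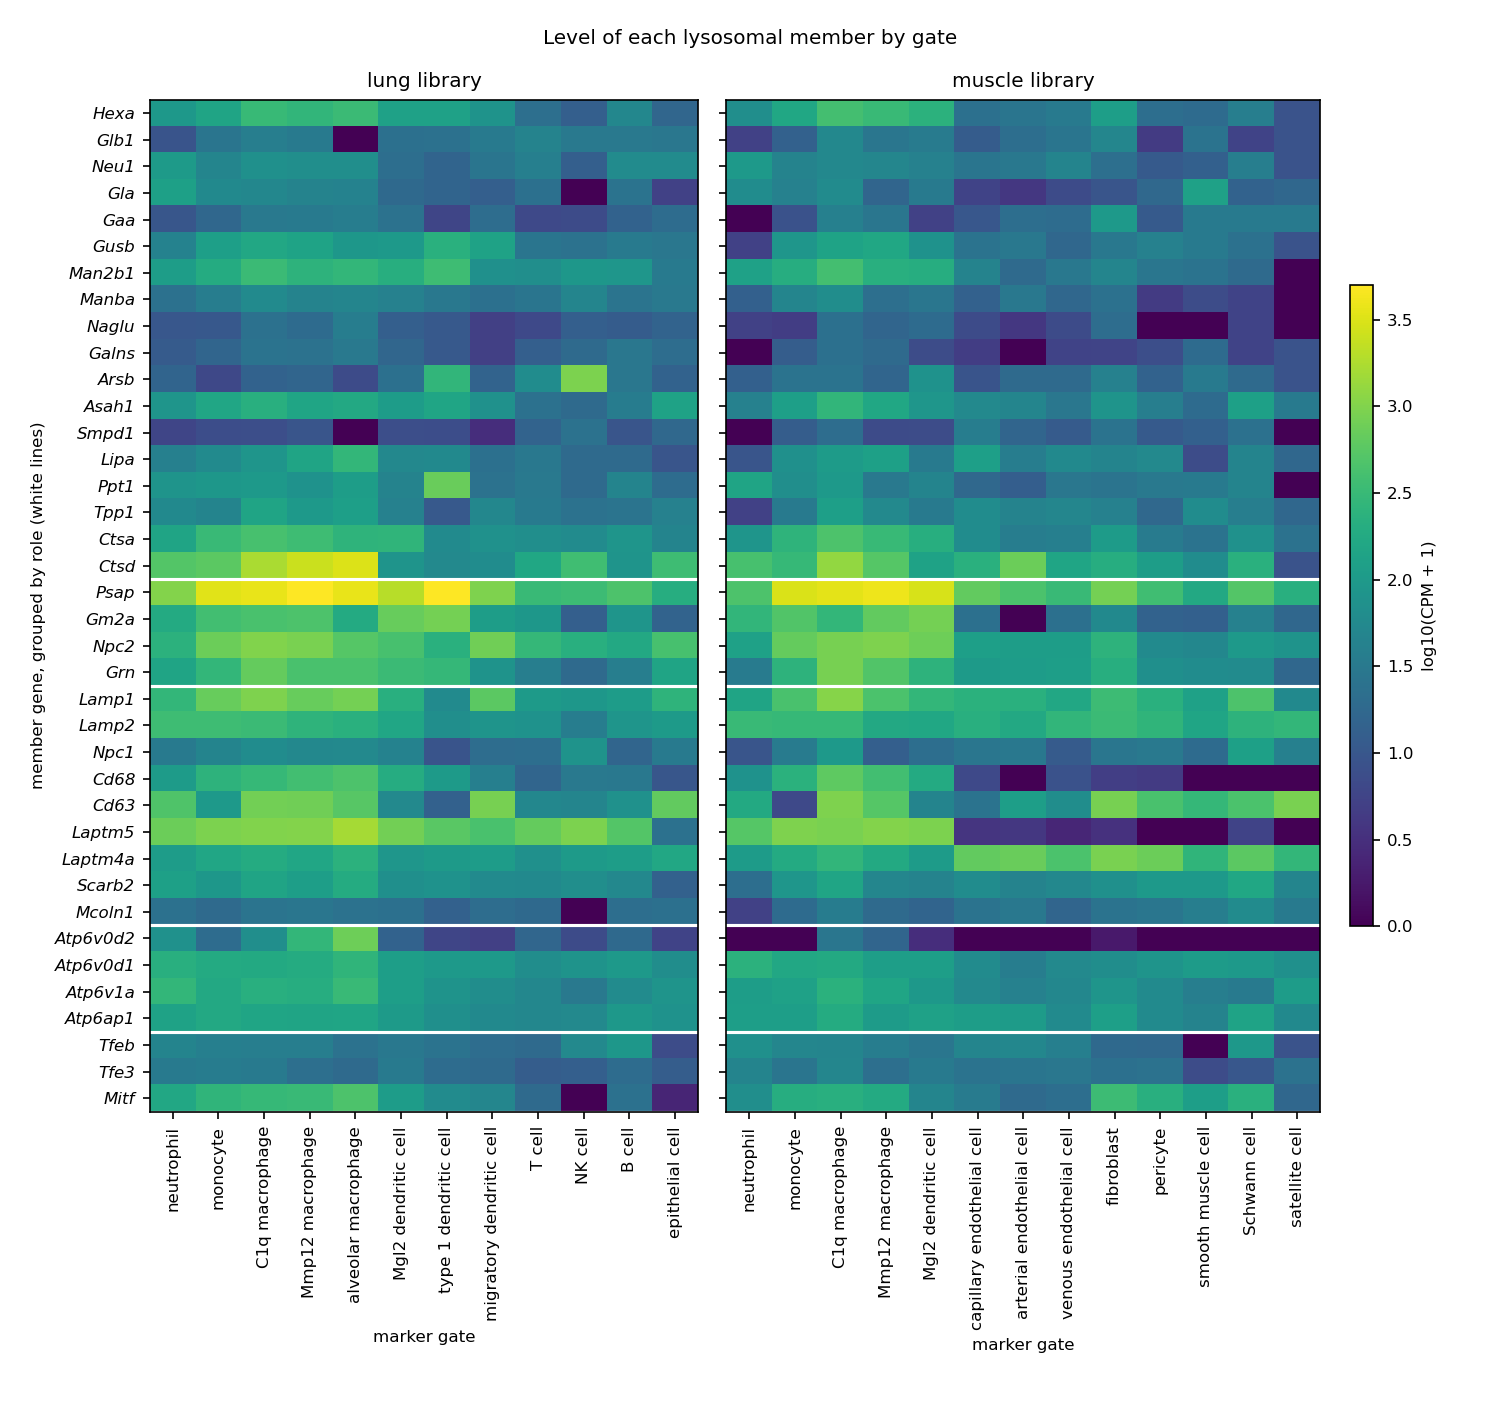
Level of each of the 38 genes (rows, grouped by role between white lines) in each gate (columns) of the lung and muscle libraries, as log10 of CPM + 1. Psap is the brightest row in the macrophage, monocyte and dendritic cell gates; Arsb in lung NK cells (946 CPM) and Ppt1 in lung type 1 dendritic cells (714 CPM) stand apart from their rows, and Laptm5 is dark in all 8 structural gates of muscle.

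Among the luminal cofactors Psap, the precursor of the saposins that lift lipids to the hydrolases, was the most abundant member in most gates. It held 5143 CPM (4965 to 5325) in lung type 1 dendritic cells and 5045 (4991 to 5100) in Mmp12 macrophages, with overlapping intervals. C1q macrophages held 3820 CPM, alveolar macrophages 3746, monocytes 3367, Mgl2 dendritic cells 2016 and neutrophils 1014. The other lung gates lay between 203 CPM in epithelial cells and 965 CPM in migratory dendritic cells. In muscle Psap went from 4086 CPM in Mmp12 macrophages and 3544 in C1q macrophages to 169 CPM in smooth muscle cells.

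Gm2a, the activator that serves hexosaminidase, held 834 CPM in lung type 1 and 697 in lung Mgl2 dendritic cells, but 112 in lung migratory dendritic cells. Lung Mmp12 macrophages held 465 CPM and C1q macrophages 429 CPM. In muscle it held 855 CPM in Mgl2 dendritic cells and 644 CPM in Mmp12 macrophages. NK cells held 11.98 CPM (2 UMIs), and arterial cells had no UMI. Npc2, which binds cholesterol in the lumen, was highest in lung C1q macrophages (999 CPM) and muscle Mmp12 macrophages (951 CPM), and migratory dendritic cells kept 791 CPM. Grn, progranulin, was highest in the C1q macrophages of both libraries, at 665 and 869 CPM.

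The lung type 1 dendritic cells thus combined members far above and far below the rest. Psap, Gm2a, Ppt1, Gusb, Man2b1 and Arsb were the 6 higher ones. Beside Ctsd, the 14 lower ones included Lamp1 (56.9 against 448 CPM), Cd63 (13.01 against 513 CPM), Tpp1 (9.76 against 67.1 CPM) and Npc1 (8.13 against 39.1 CPM). The gate held 59 cells with a median of 10081 UMIs.

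Among the membrane proteins, 2 related genes divided leukocytes from structural cells. Laptm5 and Laptm4a encode members of 1 family of lysosomal transmembrane proteins. Laptm5 made 76.8% to 90.6% of the pair's UMIs in the 16 leukocyte gates of both tissues. Its share was 12.1% (9.43% to 15.1%) in lung epithelial cells and at most 0.775% in the 8 structural gates of muscle. As levels, Laptm5 was highest in lung alveolar macrophages (1585 CPM) and Mmp12 macrophages (1042 CPM in each tissue), and ranged from 0 to 4.58 CPM in the structural gates of muscle. Laptm4a was highest in muscle fibroblasts (899 CPM), pericytes (734 CPM), arterial (708 CPM) and capillary cells (655 CPM). In lung it ranged only from 71.1 CPM in T cells to 234 CPM in alveolar macrophages.

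Cd68, the macrophage sialomucin, stood at 607 CPM in muscle C1q macrophages and 373 CPM in muscle Mmp12 macrophages, and at no more than 7.45 CPM in the structural gates. In lung it went from 456 CPM in alveolar macrophages to 8.80 CPM in epithelial cells. Cd63, a tetraspanin of late endosomes, crossed that line. It held 962 CPM in muscle C1q macrophages, 900.5 CPM in satellite cells and 874 CPM (823 to 926) in fibroblasts, but 25.0 CPM in capillary cells and 5.59 CPM in muscle monocytes. In lung it was highest in migratory dendritic cells (881 CPM), with 821 CPM in C1q macrophages and 653 CPM in epithelial cells.

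Lamp1 and Lamp2 are the main glycoproteins of the limiting membrane. Lamp1 was highest in the C1q macrophages of both tissues, at 957 CPM in lung and 1059 CPM in muscle, with 586 CPM in migratory dendritic cells and 56.9 CPM in type 1 dendritic cells of lung. Lamp2 varied less. Its range was 35.9 CPM in NK cells to 351 CPM in neutrophils of lung and 150.3 CPM in smooth muscle cells to 331 CPM in fibroblasts of muscle.

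The Schwann cell gate of muscle, 71 cells, had the highest reading of 3 membrane proteins, with intervals that overlapped those of C1q macrophages. Npc1, which exports cholesterol from the lysosome, held 124 CPM (81.5 to 179.9) against 28.6 CPM in the other gated muscle cells. Scarb2, the receptor that carries glucocerebrosidase to the lysosome, held 160 against 67.8 CPM, and Mcoln1, the calcium channel mucolipin-1, 59.5 against 22.6 CPM. Npc1 is overlapped by Rmc1 on the opposite strand. With Tfeb these were the 4 members higher in that gate. In lung Npc1 was highest in NK cells (77.9 against 38.2 CPM) and Scarb2 in alveolar macrophages (186 CPM). Mcoln1 stayed between 13.01 and 27.6 CPM in the lung gates other than NK cells, which had no UMI of it.

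The proton pump was described gene by gene. Atp6v0d2 and Atp6v0d1 encode alternative d subunits of the membrane sector, the first known from osteoclasts and macrophages and the second present in most tissues. In lung Atp6v0d2 held 768 CPM (641 to 914) in alveolar macrophages, 279 (266 to 292) in Mmp12 macrophages, 74.2 in neutrophils, 66.5 in C1q macrophages, 19.0 in monocytes, 17.1 in B cells, 15.9 in T cells, 13.7 in Mgl2 dendritic cells, 5.99 in NK cells, 4.88 in type 1 dendritic cells, 4.57 in epithelial cells and 4.01 in migratory dendritic cells. In muscle it held 27.1 CPM in C1q macrophages, 15.1 in Mmp12 macrophages, 2.08 in Mgl2 dendritic cells and 0.779 in fibroblasts, and 0 UMIs were counted in neutrophils, monocytes and the capillary, arterial, venous, pericyte, smooth muscle, Schwann and satellite gates. Lung alveolar macrophages were thus higher than every other gate beyond the counting intervals. An Atp6v0d2 UMI was found in 27 of 37 alveolar macrophages (73.0%) and in 53.3% after thinning to 1000 UMIs. Thinned shares were 20.9% in Mmp12 macrophages, 6.70% in C1q macrophages and 4.74% in neutrophils of lung, and 1.64% in T cells and 2.11% in B cells. The B and T cells were taken as the background by choice, and no background level was measured. In CPM the NK, type 1 dendritic, epithelial and migratory dendritic gates read lower than these, at 5.99, 4.88, 4.57 and 4.01. Median depths before thinning were 3678 UMIs in alveolar macrophages, 2889.5 in T cells and 2032 in B cells.

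Atp6v0d1 varied far less. In lung it held 258 CPM in alveolar macrophages, 218 in neutrophils, 189 in Mmp12 macrophages, 185 in monocytes, 176 in C1q macrophages, 118 in Mgl2 dendritic cells, 100.4 in migratory dendritic cells, 100.4 in B cells, 97.6 in type 1 dendritic cells, 77.9 in NK cells, 64.7 in epithelial cells and 63.1 in T cells. In muscle it held 239 CPM in neutrophils, 175 in C1q macrophages, 164 in monocytes, 117 in Mmp12 macrophages, 116 in Mgl2 dendritic cells, 106 in smooth muscle cells, 96.2 in Schwann cells, 81.6 in pericytes, 71.7 in satellite cells, 63.1 in fibroblasts, 60.0 in capillary, 53.6 in venous and 35.7 in arterial cells. Of the UMIs of both d subunits Atp6v0d2 made 74.9% in alveolar and 59.6% in Mmp12 macrophages of lung, 27.4% in lung C1q macrophages and 25.4% in lung neutrophils. In muscle the share was 13.4% in C1q and 11.4% in Mmp12 macrophages, and no other gate was above 1.75%.

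Atp6v1a, the catalytic subunit of the cytosolic sector, held in lung 318 CPM in alveolar macrophages, 276 in neutrophils, 212 in C1q macrophages, 201 in Mmp12 macrophages, 168 in monocytes, 117 in Mgl2 dendritic cells, 81.6 in epithelial cells, 78.1 in type 1 dendritic cells, 64.2 in migratory dendritic cells, 60.0 in B cells, 51.0 in T cells and 29.9 in NK cells. In muscle it held 227 CPM in C1q macrophages, 150.5 in Mmp12 macrophages, 130.4 in monocytes, 113 in neutrophils, 112 in satellite cells, 93.4 in Mgl2 dendritic cells, 83.3 in fibroblasts, 57.8 in pericytes, 55.0 in capillary, 50.6 in venous and 41.6 in arterial cells, 37.6 in smooth muscle cells and 32.1 in Schwann cells. Myeloid gates thus headed both orders. Atp6ap1, an accessory subunit of pump assembly, was the most even of the 4. It ranged in lung over 168 CPM in monocytes, 150.4 in C1q macrophages, 150.1 in alveolar macrophages, 142 in Mmp12 macrophages, 135 in neutrophils, 103 in Mgl2 dendritic cells, 94.3 in B cells, 75.0 in epithelial cells, 68.3 in type 1 dendritic cells, 56.2 in migratory dendritic cells, 53.9 in NK cells and 50.5 in T cells. In muscle it ranged over 185 CPM in C1q macrophages, 137 in Schwann cells, 129 in Mgl2 dendritic cells, 121 in fibroblasts, 117.4 in neutrophils and in monocytes, 114 in capillary and 107 in arterial cells, 105 in Mmp12 macrophages, 58.1 in venous cells, 57.8 in pericytes, 55.8 in satellite cells and 43.8 in smooth muscle cells.

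**Figure D4:**
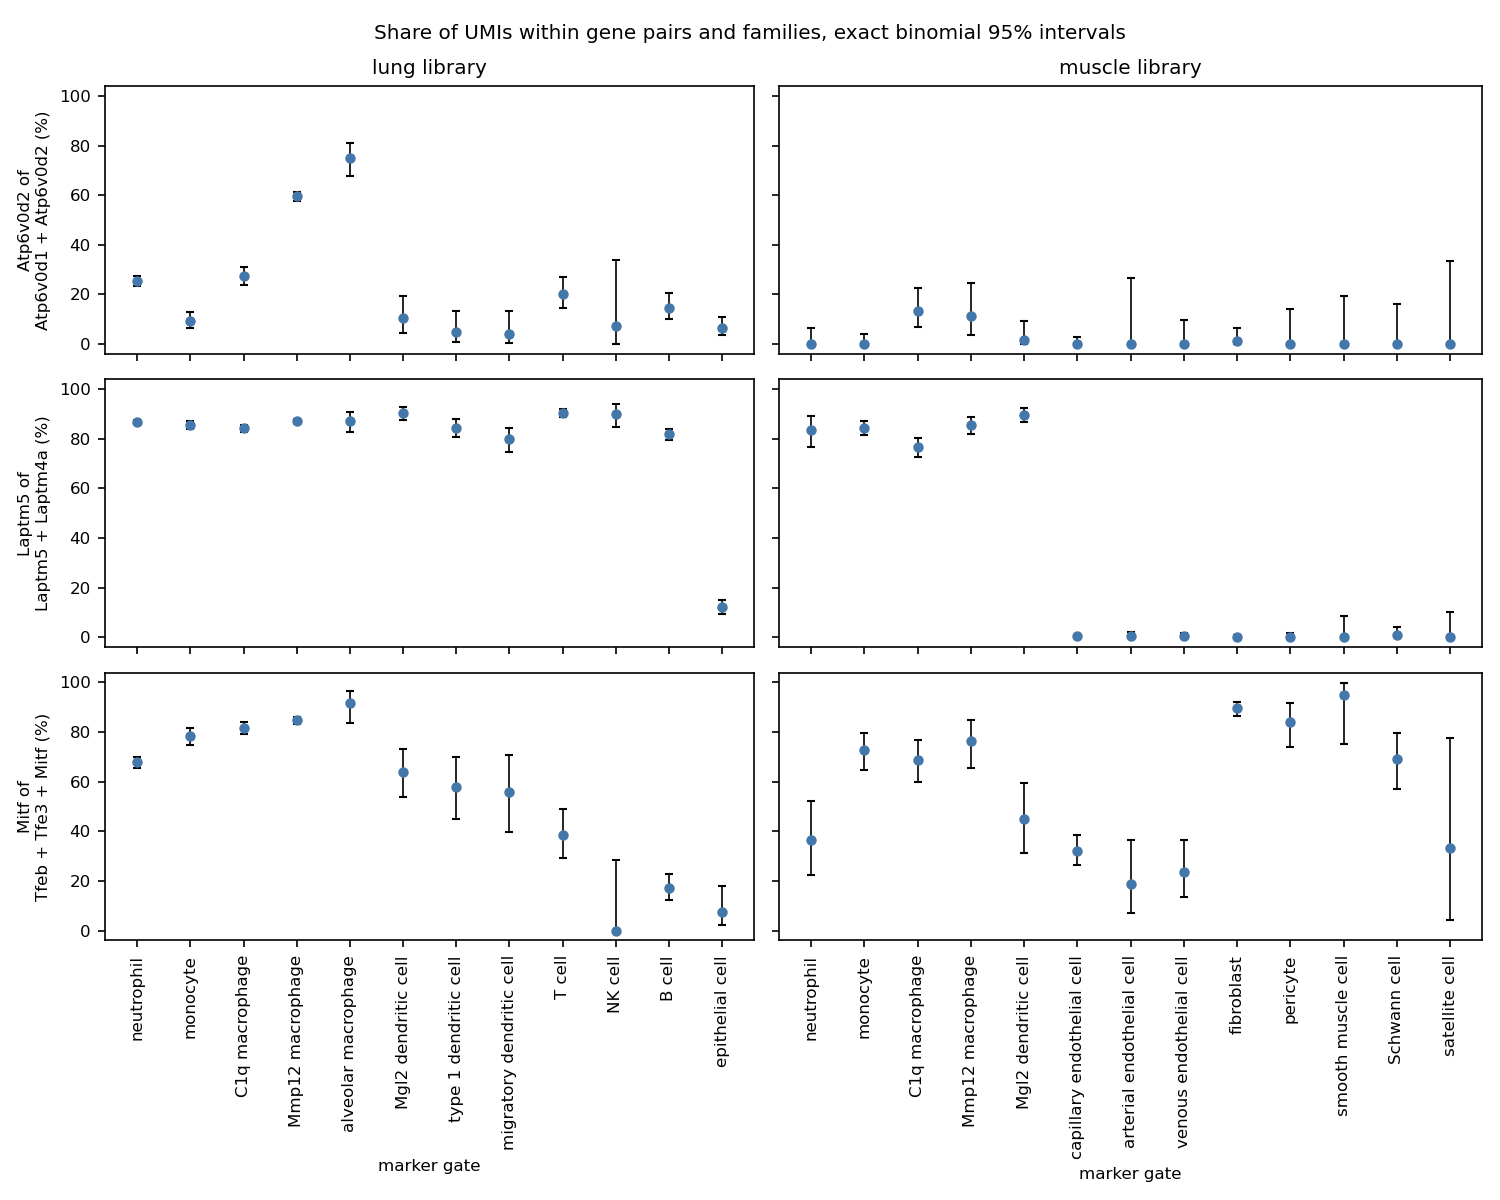
Share of UMIs held by Atp6v0d2 among both d subunits (top), by Laptm5 among Laptm5 and Laptm4a (middle) and by Mitf among the 3 MiT/TFE factors (bottom), in percent with exact binomial 95% intervals, for each gate. Atp6v0d2 passes 59% in 2 lung macrophage gates only, Laptm5 separates leukocyte from structural gates, and Mitf goes from 0 in lung NK cells and 7.41% in lung epithelial cells to 91.7% in lung alveolar macrophages and 89.7% in muscle fibroblasts.

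Of the 3 factors Mitf was the most abundant in most gates. In lung it held 462 CPM (365 to 578) in alveolar macrophages, 321 in Mmp12 macrophages, 303 in C1q macrophages, 261 in monocytes, 165 in neutrophils, 110 in Mgl2 dendritic cells, 60.2 in type 1 dendritic cells, 48.2 in migratory dendritic cells, 22.7 in B cells, 18.2 in T cells, 1.41 in epithelial cells and 0 in NK cells. In muscle the highest gate was the fibroblasts, at 345 CPM (314 to 379) with a UMI in 145 of 227 cells, followed by Schwann cells (224), pericytes (218), C1q macrophages (212), monocytes (199), Mmp12 macrophages (184), smooth muscle cells (119), neutrophils (67.1), Mgl2 dendritic cells (47.7), capillary (34.1), venous (20.8) and arterial cells (17.8) and satellite cells (15.9). Mitf was thus high both in macrophages and in mesenchymal cells and low in endothelium. The 58 NK cells had 0 Mitf UMIs, and 3 UMIs would have been 18.0 CPM.

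Tfeb followed another order. In lung it held 90.6 CPM (76.6 to 106) in B cells, against 32.7 CPM in the other gated lung cells, 53.9 in NK cells, 45.1 in neutrophils, 38.1 in monocytes, 36.7 in Mmp12 macrophages, 36.6 in C1q macrophages, 29.2 in Mgl2 dendritic cells, 24.4 in type 1 dendritic cells, 24.0 in alveolar macrophages, 20.1 in migratory dendritic cells, 17.8 in T cells and 6.33 in epithelial cells. In muscle it held 91.6 CPM (55.9 to 141) in Schwann cells, against 36.6 CPM in the rest, 71.3 in neutrophils, 50.5 in arterial cells, 48.4 in monocytes, 46.9 in C1q macrophages, 46.8 in capillary cells, 38.7 in venous cells, 36.1 in Mmp12 macrophages, 27.0 in Mgl2 dendritic cells, 17.1 in fibroblasts, 17.0 in pericytes, 7.97 in satellite cells and 0 in smooth muscle cells. Tfeb was the 1 member higher in lung B cells, and its call in Schwann cells was lost under 2 of the other settings.

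Tfe3 was low throughout, and most neighbouring gates had overlapping intervals. In lung it held 34.5 CPM in monocytes, 32.8 in neutrophils, 32.6 in Mgl2 dendritic cells, 31.4 in C1q macrophages, 21.5 in Mmp12 macrophages, 19.5 in type 1 dendritic cells, 19.0 in B cells, 18.1 in migratory dendritic cells, 18.0 in alveolar macrophages, 11.98 in NK cells, 11.3 in epithelial cells and 11.2 in T cells. In muscle it held 49.4 CPM in C1q macrophages, 46.1 in neutrophils, 31.1 in Mgl2 dendritic cells, 28.3 in venous cells, 26.8 in arterial cells, 26.1 in monocytes, 25.0 in capillary cells, 23.9 in satellite cells, 23.8 in pericytes, 22.6 in fibroblasts, 21.1 in Mmp12 macrophages, 9.16 in Schwann cells and 6.26 in smooth muscle cells. As a share of the 3 factors, Mitf made 91.7% in alveolar, 84.7% in Mmp12 and 81.7% in C1q macrophages of lung, and 89.7% in fibroblasts, 84.2% in pericytes and 19 of 20 UMIs in smooth muscle cells of muscle. Tfeb made 68.5% (61.9% to 74.7%) in lung B cells and 81.8% (48.2% to 97.7%) in NK cells, from 11 UMIs of the family.

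The upstream sequences of the members were read for the E-box that these factors bind. RefSeq windows of 250 bases before to 50 after the transcription start, on build GRCm38.p6, were found for 34 of the 38 members. Asah1, Galns, Npc1 and Atp6v0d2 had no window. The 6-base palindrome CACGTG occurred in 10 of the 34 members (29.4%), against 2187 of 27025 genes (8.09%). All 10 also held TCACGTG on 1 of the strands (29.4%, against 4.29% of genes), a string that contains the first. The 10 members were Ctsd, Ctsa, Gla, Gaa, Glb1, Naglu, Lamp1, Mcoln1, Atp6v0d1 and Atp6v1a. No window of the 4 cofactors or of the 3 factors held the string. The sequences below are the stretches around the matches in 6 of these genes whose levels are described above, upstream bases only, 5′ to 3′ on the gene's strand, with each CACGTG in capitals; Lamp1 has 4 matches within 61 bases of its start.
Lamp1, chr8:13159080-13159160, plus strand: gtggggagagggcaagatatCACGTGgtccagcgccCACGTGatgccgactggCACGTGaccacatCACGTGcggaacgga
Mcoln1, chr8:3500428-3500499, plus strand: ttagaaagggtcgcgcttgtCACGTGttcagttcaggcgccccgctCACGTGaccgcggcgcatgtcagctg
Ctsd, chr7:142387900-142388077, minus strand: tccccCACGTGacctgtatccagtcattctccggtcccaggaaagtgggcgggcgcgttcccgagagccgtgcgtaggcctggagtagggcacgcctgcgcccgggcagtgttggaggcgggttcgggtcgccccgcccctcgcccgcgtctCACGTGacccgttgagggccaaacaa
Gla, chrX:134601174-134601252, minus strand: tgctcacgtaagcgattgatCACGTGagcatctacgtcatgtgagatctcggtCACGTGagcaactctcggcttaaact
Gaa, chr11:119267803-119267848, plus strand: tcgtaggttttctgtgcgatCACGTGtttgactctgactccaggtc
Atp6v1a, chr16:44139365-44139410, minus strand: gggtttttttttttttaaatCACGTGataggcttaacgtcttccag

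Members with and without the string were counted apart. In lung C1q macrophages 2 of 10 with it and 6 of 24 without it were higher, and in lung Mmp12 macrophages 3 of 10 and 8 of 24 (all genes, 4.17% in each). In muscle C1q macrophages the counts were 8 of 10 and 13 of 24 (8.50%). In fibroblasts of muscle, where Mitf was highest, 3 of 10 (Gaa, Glb1 and Naglu) and 2 of 24 (Cd63 and Mitf itself) were higher (13.1%). In the other 16 gates 0 to 2 of those with the string and 0 to 7 of those without it were higher. These are counts of chosen genes, and a match is a description of the letters, not a binding site.

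The same gate was compared between tissues where both libraries had at least 20 cells, with muscle as the numerator. C1q macrophages had like sums in both libraries. The sum was 14466 CPM in the muscle gate and 14495 CPM in the lung gate, with a log2 ratio between -0.04 and 0.04, and the rank correlation over the 38 genes was 0.98, a description of 2 libraries; it was 0.96 between the C1q and Mmp12 macrophages of lung. Of 37 members tested 0 were higher and 1 was lower, where 6.55% of all genes were higher and 8.39% lower. By role, membrane proteins stood at 4388 against 3814 CPM (log2 ratio 0.20, 0.13 to 0.28) and MiT/TFE factors at 308 against 371 CPM (-0.27, -0.55 to 0.00). The lower member was Atp6v0d2, with 27.1 CPM in the muscle gate against 66.5 CPM (log2 ratio -1.29, -2.32 to -0.42), with 45.5% of the 11 muscle UMIs from 1 cell. Cd68 stood next to the upper limit, at 607 against 304 CPM (log2 interval 0.78 to 1.20). In 7 of the 13 other settings 1 member passed that limit. With at least 10 counts per gene this member was not Cd68, whose ratio that setting leaves unchanged.

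In Mmp12 macrophages 0 of 38 members were higher and 7 lower in muscle (all genes, 4.13% and 9.45%). Atp6v0d2 differed most, with 15.1 CPM in muscle against 279 CPM in lung, an 18.5-fold lower level from 5 muscle UMIs. Ctsd stood at 536 against 2524 CPM (log2 ratio -2.24, -2.46 to -2.02). Npc1 (12.04 against 52.3 CPM), Gla (15.1 against 43.7 CPM), Ppt1 (30.1 against 76.6 CPM) and Scarb2 (48.2 against 117 CPM) followed, and Manba was just inside the rule at 21.1 against 44.6 CPM. Summed by role, hydrolases stood at 2105 against 4283 CPM, but the 17 other than Ctsd at 1569 against 1759 CPM. The pump stood at 388 against 811 CPM, and its 3 genes other than Atp6v0d2 at 373 against 532 CPM. The luminal cofactors stood at 6181 against 6852 CPM. With at least 4 markers, where 11 muscle cells were left, 4 members were lower, without Gla, Manba and Scarb2. The muscle gate held 24 cells, of which 13 passed with the minimum number of markers, and carried the neutrophil granule transcript Camp at 611 CPM, against 0.614 CPM in lung. The part of that in the result was not tested.

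In neutrophils 0 of 38 members were higher and 12 lower in muscle (all genes, 4.24% and 13.1%). Tpp1 stood at 4.19 against 55.3 CPM (log2 ratio -3.72, -9.03 to -1.23) and Gusb at 4.19 against 43.4 CPM (-3.37, -8.68 to -0.88), each from 1 muscle UMI, and Lipa at 8.38 against 39.3 CPM from 2 (-2.23, -5.28 to -0.36). Scarb2 stood at 21.0 against 127 CPM and Grn at 33.5 against 145 CPM. Atp6v0d2 had 0 UMIs in muscle against 74.2 CPM in lung, 5.90-fold lower with the floor of 3 UMIs put in for the muscle gate. Psap stood at 461 against 1014 CPM and Cd63 at 176 against 476 CPM. Mitf (67.1 against 165 CPM), Atp6v1a (113 against 276 CPM), Npc1 (8.38 against 31.9 CPM, from 2 muscle UMIs, -4.98 to -0.06) and Asah1 complete the 12. Hydrolases, cofactors and pump genes were thus all among the lower members. With mixed cells kept 7 members were lower, and the log2 ratios of Psap (-0.31), Grn (-0.43), Cd63 (-0.65), Gusb (-0.22), Asah1 (-0.66) and Npc1 (-0.81) no longer passed. The median log2 ratio was -0.97 over the members but also -0.59 over all genes tested. Under TMM scaling, which shifts these ratios up by 0.36, 2 members were higher and 7 lower, and the share of higher genes among all called ones went from 24.5% to 53.1%. The granule transcripts Ngp (6450 against 328 CPM) and Camp (5113 against 378 CPM), chosen after their values were seen, were higher in the muscle gate. Their part in the result was not tested.

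In monocytes 0 of 35 members were higher and 2 lower (all genes, 5.74% and 7.79%). Cd63 stood at 5.59 CPM in muscle, 3 UMIs, against 94.6 CPM in lung (log2 ratio -4.08, -6.37 to -2.51), and Atp6v0d2 had 0 UMIs against 19.0 CPM. That lung level is like the 17.1 CPM in B cells and 15.9 CPM in T cells, the gates chosen as background. The thinned shares were 1.88%, 2.11% and 1.64%. The monocyte level is therefore not read as expression here. Other lung gates read lower, down to 4.01 CPM in migratory dendritic cells, and whether the monocyte level is background was not tested. In the lung gate 40.6% of the Atp6v0d2 UMIs came from 1 cell. In Mgl2 dendritic cells 1 of 30 was higher and 1 lower (all genes, 5.69% and 13.2%). Arsb stood at 74.7 against 22.3 CPM (log2 ratio 1.74, 0.80 to 2.78) and Mitf at 47.7 against 110 CPM. TMM scaling, an upward shift of 0.29, gave 5 higher and 0 lower here and took the share of higher genes among all called ones from 30.1% to 54.3%; in Mmp12 macrophages a shift of 0.17 took it from 30.4% to 46.1%. Atp6v0d2 thus passed the rule as lower in muscle in C1q macrophages, Mmp12 macrophages and neutrophils. In monocytes it passed only against a lung level like that of B and T cells. The B and T cell level of 15.9 to 17.1 CPM, chosen as the lung background, was not taken off in any gate. Muscle C1q macrophages held 27.1 CPM. Whether the call in C1q macrophages holds without that background was not tested. Mgl2 dendritic cells had too few Atp6v0d2 UMIs.

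A further 47 lysosomal genes were counted in the same way, with the shares of all genes as given above for the members. In muscle C1q macrophages 22 of 46 were higher and 1 lower, led by Gpnmb (405 against 41.3 CPM), Lgmn, the protease legumain (1172 against 119.5 CPM), and Pla2g15 (83.9 against 9.11 CPM). In lung C1q macrophages 7 of 47 were higher and 1 lower, with Lgmn (1167 against 226 CPM), Igf2r (9.95 against 39.5 CPM) and Acp2 (48.9 against 17.2 CPM) the largest differences. In lung Mmp12 macrophages 8 were higher and 2 lower, led by Gpnmb (246 against 22.7 CPM), Acp5, the tartrate-resistant phosphatase (503 against 133 CPM), and Sort1 (70.0 against 23.4 CPM).

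The other gates were counted in the same way, and the shares of all genes are those given above for the members. In lung the counts were 22 lower and 4 higher in T cells (Mfsd12, Atp6v0a1 and Tfec differing most), 20 and 1 in epithelial cells (Gpnmb, Lgmn, Tfec), 18 and 1 in B cells (Sort1, Tfec, Gpnmb) and 15 and 3 in NK cells (Atp6v0a1, Lgmn, Dnase2a). Migratory dendritic cells had 14 and 3 (Gpnmb, Cln3, Aga), type 1 dendritic cells 14 and 0 (Pla2g15, Lgmn, Tfec), Mgl2 dendritic cells 8 and 2 (Tfec, Gpnmb, Igf2r), neutrophils 7 and 4 (Scpep1, Lgmn, Acp5; 41.9% of all genes were lower there) and monocytes 4 and 1 (Gpnmb, Acp5, Tfec). In muscle they were 17 and 0 in venous cells (Gpnmb, Acp5, Flcn), 13 and 0 in capillary cells (Gpnmb, Pla2g15, Scpep1), 11 and 2 in pericytes, 10 and 7 in neutrophils (Gpnmb, Scpep1, Ids), and 7 and 0 in arterial cells. Schwann cells had 7 and 1 (Tcirg1, Sort1, Lgmn), fibroblasts 4 and 7 (Gpnmb, Dpp7, Lgmn) and monocytes 2 and 4 (Tfec, Igf2r, Tcirg1).

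Between tissues these genes were counted again. Of all genes, 13.1% were lower and 4.24% higher in neutrophils, 9.45% and 4.13% in Mmp12 macrophages, and 8.39% and 6.55% in C1q macrophages. In neutrophils 10 of 47 were lower and 0 higher, with Tcirg1, the a3 subunit of the pump (12.6 against 135 CPM), Gpnmb (4.19 against 31.6 CPM) and Tfec, the fourth MiT/TFE factor (4.19 against 31.3 CPM), the largest measured differences, each from 1 to 3 muscle UMIs (log2 intervals -5.71 to -1.88, -8.22 to -0.42 and -8.21 to -0.41). Acp5 had 0 muscle UMIs against 78.7 CPM in lung. With the floor of 3 UMIs put in for the muscle gate it was 6.26-fold lower, and its log2 interval ended at -2.34. In Mmp12 macrophages 5 of 46 were lower and 2 higher, with Tfec (3.01 against 90.8 CPM, log2 ratio -4.91, -10.22 to -2.43, 1 UMI), Sort1 (6.02 against 70.0 CPM, -3.54, -6.59 to -1.68, 2 UMIs) and Sgsh (18.1 against 4.45 CPM). In C1q macrophages 5 of 44 were higher and 3 lower; Gpnmb was higher in muscle (405 against 51.7 CPM), and Acp5 (59.2 against 440 CPM) and Tfec (22.2 against 81.6 CPM) were lower. In monocytes 3 of 38 were lower, Acp5, Tfec and Atp6v1d (all genes, 7.79%). In Mgl2 dendritic cells 3 of 26 were lower, Acp5, Gnptab and Atp6v1d (13.2%). In both gates the count was near the share over all genes. Acp5 was lower in muscle in all 5 gates and Tfec in 4.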

How the data were processed

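Single-cell 5' RNA libraries of 1 lung and 1 gastrocnemius muscle were analysed. The deposited matrices hold unnormalized UMI counts of each gene in each barcode. The authors used Cell Ranger 7.0.1, per the file headers, and GRCm39, per the submitters' processing notes. Cell calling, strand, introns and annotation are not given in the sources used here. Depth was 34751225 UMIs in lung and 14056163 in muscle, and each level's interval gives its precision.

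Barcodes needed 200 detected genes or more, and a mitochondrial share (37 genes) of 10% or less. A cell took the type, of 22, with the highest share of its markers detected, given at least 3 of them. Ties were left out, as were cells in which a type of another lineage passed with a share of at least 1/2 that of the winner. Doublets were not removed in the main values; 537 lung and 40 muscle cells scored as doublets were left out as an alternative. Levels are counts per 1000000 (CPM) from summed UMIs, and ratios have exact conditional binomial 95% intervals. Gates of at least 20 cells were described, and those of at least 50 were set against the rest. The size rule was tested on simulated data. TMM factors came from edgeR 4.0.16. The gates, mitochondrial limit, depth filters, denominator, cell weights, fold and count minimum were varied.

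Members and lists were chosen with earlier results of these data known. Named with values were the 2 most abundant members per role, members past the rule between tissues (or the 6 that differed most), all pump and MiT/TFE genes in every gate, and the 3 other lysosomal genes that differed most per comparison (for pericytes and arterial cells these are not reported here); members that led a gate were named after their values were seen. Promoter windows came from RefSeq on GRCm38.p6, a build other than that of the counts. Overlapping genes were read from GENCODE M21: 5 members share sequence with a gene on the same strand and 11 with one on the opposite strand.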

Additional observations from a re-analysis of the deposited data

Results flagged for a closer look

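Cells that passed no gate stood outside every comparison and carried lysosomal transcripts. No control samples were available, and no background level was measured for these cells. In lung 1760 such cells, with a median of 885 UMIs, held the 38 genes at a summed 7119 CPM (7011 to 7229), of which luminal cofactors made 2783 CPM and membrane proteins 2115 CPM. In muscle 353 such cells, with a median of 1675 UMIs, held 3069 CPM (2948 to 3193), with MiT/TFE factors at 315 CPM.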

How the results depend on the processing

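No paired analysis was possible because each tissue had 1 library and no replicate number. Over the alternatives, 429 counts of members in gates against the rest and 101 between tissues stayed within 1.5 times the main count, and 51 and 29 did not. Of the log2 ratios of members past the rule, 3461 alternatives kept side and direction against the rest, 287 kept the direction only and 1 turned, Smpd1 in lung epithelial cells at -0.051 with every cell weighted equally. Between tissues 241 kept both and 45 the direction only. The cause of the changes below was not tested. The counts of members below are given without the share of all genes at the same setting. They show how far a count moved and are not read as a result about the members. At a mitochondrial limit of 5% members higher were 2 in lung neutrophils. Members higher in muscle than lung were 1 in C1q macrophages. Members lower were 1 in muscle C1q macrophages. At a mitochondrial limit of 20% members higher were 2 in lung neutrophils. With every cell weighted equally members higher were 0 in lung epithelial cells, 1 in lung migratory dendritic cells, 2 in lung monocytes, lung Mgl2 dendritic cells, lung T cells and lung B cells, 3 in lung neutrophils, 4 in lung NK cells, 10 in muscle neutrophils and 16 in lung C1q macrophages. Members higher in muscle than lung were 1 in neutrophils and C1q macrophages. Members lower were 1 in muscle C1q macrophages. Members lower in muscle than lung were 3 in Mgl2 dendritic cells and 5 in monocytes. The summed level was 5709 CPM in lung neutrophils, 13113 CPM in lung C1q macrophages, 8299.6 CPM in muscle monocytes and 13027 CPM in muscle C1q macrophages. The share was 21.7% luminal cofactor in lung neutrophils, 38.3% membrane protein in lung neutrophils, 12.2% proton pump in lung neutrophils, 47.8% luminal cofactor in lung monocytes, 25.4% hydrolase in lung C1q macrophages, 40.2% luminal cofactor in lung C1q macrophages, 28.0% membrane protein in lung C1q macrophages, 2.07% MiT/TFE factor in lung C1q macrophages, 16.4% luminal cofactor in muscle neutrophils and 4.92% proton pump in muscle C1q macrophages. Without doublet-scored cells members higher were 2 in lung neutrophils. Lower in muscle than lung were 1 in monocytes and 2 in Mgl2 dendritic cells. Sums were 5774 CPM in lung neutrophils. The share was 22.2% luminal cofactor in lung neutrophils, 38.004% membrane protein in lung neutrophils and 12.2% proton pump in lung neutrophils. With a 4-fold in place of a 2-fold limit, which can only remove members, members higher were 0 in lung neutrophils, lung C1q macrophages, lung Mgl2 dendritic cells, lung T cells, lung B cells, lung epithelial cells, muscle neutrophils, muscle capillary and arterial cells, 1 in lung NK cells, muscle monocytes and muscle Schwann cells, 2 in lung Mmp12 macrophages and lung type 1 dendritic cells, 3 in muscle fibroblasts and 7 in muscle C1q macrophages. Members higher in muscle than lung were 0 in Mgl2 dendritic cells. Members lower were 0 in lung neutrophils, lung C1q macrophages and lung Mmp12 macrophages, 2 in muscle fibroblasts, 3 in lung Mgl2 dendritic cells, 4 in muscle Schwann cells, 5 in lung migratory dendritic cells, 6 in muscle arterial and venous cells, 7 in lung type 1 dendritic cells and muscle pericytes, 8 in lung B cells, 9 in muscle neutrophils and capillary cells and 10 in lung T cells. Members lower in muscle than lung were 0 in C1q macrophages and Mgl2 dendritic cells, 3 in Mmp12 macrophages and 6 in neutrophils. With a gate of at least 2 markers members higher were 1 in lung NK cells. Members higher in muscle than lung were 2 in Mgl2 dendritic cells. The summed level was 9963 CPM in lung monocytes and 14291 CPM in lung C1q macrophages. The share was 4.41% proton pump in lung C1q macrophages and 2.57% MiT/TFE factor in muscle monocytes. With mixed cells kept members higher were 0 in lung epithelial cells. Members higher in muscle than lung were 1 in C1q macrophages. Members lower were 1 in muscle C1q macrophages and 8 in muscle neutrophils. Lower in muscle than lung were 7 in neutrophils. Sums were 6177 CPM in lung neutrophils and 5165 CPM in muscle neutrophils. The share was 25.7% luminal cofactor in lung neutrophils, 2.78% MiT/TFE factor in lung C1q macrophages, 27.4% luminal cofactor in muscle neutrophils and 9.61% proton pump in muscle neutrophils. With a gate of at least 4 markers members higher in muscle than lung were 2 in Mgl2 dendritic cells. Members lower were 1 in muscle C1q macrophages. Members lower in muscle than lung were 0 in Mgl2 dendritic cells, 1 in monocytes and 4 in Mmp12 macrophages. The summed level was 6147 CPM in lung neutrophils. The share was 2.39% MiT/TFE factor in lung C1q macrophages and 2.53% MiT/TFE factor in muscle monocytes. Under TMM scaling members higher in muscle than lung were 2 in neutrophils and 5 in Mgl2 dendritic cells. Lower in muscle than lung were 0 in Mgl2 dendritic cells and 7 in neutrophils. With at least 10 counts per gene members higher in muscle than lung were 1 in monocytes and C1q macrophages. Members lower in muscle than lung were 2 in Mgl2 dendritic cells. With at least 500 genes per cell members higher in muscle than lung were 1 in C1q macrophages. With at least 1000 UMIs per cell members higher in muscle than lung were 1 in C1q macrophages. With totals free of mitochondrial genes and Rn18s members higher in muscle than lung were 1 in C1q macrophages. Sums were 6772 CPM in lung neutrophils, 11033 CPM in lung monocytes, 15928 CPM in lung C1q macrophages, 4408 CPM in muscle neutrophils, 9788 CPM in muscle monocytes and 16044 CPM in muscle C1q macrophages. The muscle gates of 24 to 61 cells limit the comparison between tissues.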

Other observations

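Cells left out of the gates as mixed or tied also held the lysosomal genes. In lung 486 mixed cells stood at a summed 6559.9 CPM (6486 to 6634) and 51 tied cells at 10039 CPM (9746 to 10339). In muscle 96 mixed cells stood at 4791 CPM (4619 to 4967) and 110 tied cells at 4223 CPM (4043 to 4409).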
